A study of Homo sapiens with 24 samples.

Results

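The gene-dense part of human chromosome 19 that lies outside its zinc finger gene clusters was described here for 8-oxoguanine (OG), the most studied oxidised base of DNA. The region was taken as the 1 kb bins of chromosome 19 from position 1000001 of GRCh38 onward, without the bins at 0 in every column and without 4 stretches dominated by zinc finger genes (the last runs from position 52000000 to the chromosome's end). This left 40785 of the 2835235 bins of the series, or 74.3% of the bins of chromosome 19, in 4 segments. The segments were 1000001-19800000 and 24100001-36500000, followed by 38000001-43500000 and 44600001-52000000. OG-seq captures DNA fragments that hold an oxidised guanine and compares them with input DNA that was not captured. It was run on HAP1, a near-haploid human line that descends from a leukaemia, as WT cells, as cells without MUTYH (MUTYH-/), as cells without OGG1 (OGG1-/) and as cells without both (DKO). No agent was given to any group, and the protocol text names 2 antioxidants in the DNA isolation. The knockouts were made by CRISPR-Cas9, each group came from 2 clones, and the DKO clones were made from an OGG1-/ clone, so clone and genotype cannot be told apart. The table holds 3 columns per genotype, numbered 1 to 3, and the numbers were not tied to a clone or to a replicate of the labels.

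OGG1 is the DNA glycosylase that cuts OG out of the pair with cytosine. MUTYH removes the adenine that a polymerase has placed opposite an OG left in the template, which gives OGG1 another chance. Both open the base excision repair pathway, and loss of MUTYH in people underlies a hereditary polyposis of the bowel. Guanines that stand next to another guanine lose an electron more readily than single ones, and runs of guanines can fold into G-quadruplexes (G4), so a GC-rich and gene-rich chromosome offers more targets. Chromosome 19 has the highest gene density of the human chromosomes. HAP1 is known to carry an extra piece of chromosome 15 inserted in the long arm of chromosome 19. As a check of the cell line label, that segment of chromosome 15 had 2.05 to 2.12 times the mean input coverage of the genome over the 12 columns.

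Each value in the table is the OG reads of a bin minus input reads scaled to them, and can be below 0. It was divided by the mean of its column over all bins, so that a relative OG level of 1 is the genome mean. In the 40785 bins 15.8% of the values were below 0, against 23.6% over the bins not at 0 throughout. The OG and input reads behind the values could be recovered as whole numbers, and per column they came to between 59601849 and 113915679 for OG and between 78621690 and 101608128 for input. A bin of the region held on average 26.9 to 49.0 reads of OG and 29.6 to 40.7 reads of input, so a single bin in a single column carries a large counting error.

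The stretches shown first come from the bins with the highest and lowest mean level, because they show how guanine runs stand in both. Each is the 120 bases of the bin with most bases in runs of 3 or more G on one strand, read from GRCh38, 5′ to 3′ on the strand named, with those runs in capitals. Intron and intergenic name the feature at the centre of the bin, and the stretch itself may hold other sequence, such as exon. The first 3 are from the 5 highest bins and the last from the 3 lowest, and these were picked from the 8 after their values were seen.
FCGBP intron, chr19:39892792-39892911, minus strand: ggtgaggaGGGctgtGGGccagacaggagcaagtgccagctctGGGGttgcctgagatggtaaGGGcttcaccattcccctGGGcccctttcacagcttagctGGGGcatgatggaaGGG
Intergenic, chr19:34249267-34249386, plus strand: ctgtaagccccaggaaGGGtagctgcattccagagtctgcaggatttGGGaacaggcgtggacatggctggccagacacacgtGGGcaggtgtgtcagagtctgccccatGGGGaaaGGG
MPV17L2 intron, chr19:18195013-18195132, plus strand: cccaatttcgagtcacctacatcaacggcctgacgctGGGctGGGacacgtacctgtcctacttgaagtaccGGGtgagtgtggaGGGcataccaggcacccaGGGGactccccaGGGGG
SIN3B intron, chr19:16875208-16875327, plus strand: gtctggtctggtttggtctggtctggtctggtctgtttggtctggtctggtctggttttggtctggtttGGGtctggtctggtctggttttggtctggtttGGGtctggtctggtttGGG

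Of the 3 lowest bins, the intergenic one at 34716001-34717000 had 34.5% GC and 71 GG or CC steps, below the median of 146 over the bins of the region. The SIN3B bin was chosen for display after its values were seen, because it differs from that one. Its stretch is a tandem repeat of GGTCT units, and with 183 GG or CC steps it held more than the FCGBP bin shown, which held 165. None of the 5 highest and 3 lowest bins held a canonical G4 motif, taken as 4 runs of 3 or more G separated by 1 to 7 bases of any kind, on either strand. Over all 40785 bins the number of GG or CC steps correlated with the mean level at r = 0.35, and GC content at r = 0.42. These correlations are across bins, which share libraries and base composition.

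The region had a higher OG level than any other part it was compared with. WT had a mean relative level of 1.46 ± 0.0422, MUTYH-/ one of 1.47 ± 0.205, OGG1-/ one of 1.57 ± 0.135 and DKO one of 1.40 ± 0.175 (SD, n = 3 columns each). In WT the columns stood at 1.51, 1.44 and 1.43. The MUTYH-/ columns stood at 1.70, 1.39 and 1.31. The OGG1-/ columns stood at 1.47, 1.72 and 1.51, and the DKO columns at 1.24, 1.58 and 1.37. The knockouts spread more widely than WT, and all 4 genotypes overlapped. The region was above the rest of the genome by 0.470 ± 0.147 (SD over 12 columns), above its own zinc finger clusters by 0.355 ± 0.108 and above the GC-rich chromosomes 16, 17, 20 and 22 by 0.208 ± 0.0804, and each difference was positive in 12 of 12 columns. For each of these 3 comparisons p = 0.000488 (two-sided exact sign-flip permutation test over columns, the smallest p it can give), and p = 0.000651 after Benjamini-Hochberg adjustment over 4 comparisons. The input coverage of the region was itself 1.03 to 1.15 times the genome mean. On the log2 scale of OG over input reads, relative to all bins, the region stood at 0.13 ± 0.0436 (SD, n = 12 columns).

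**Figure D1:**
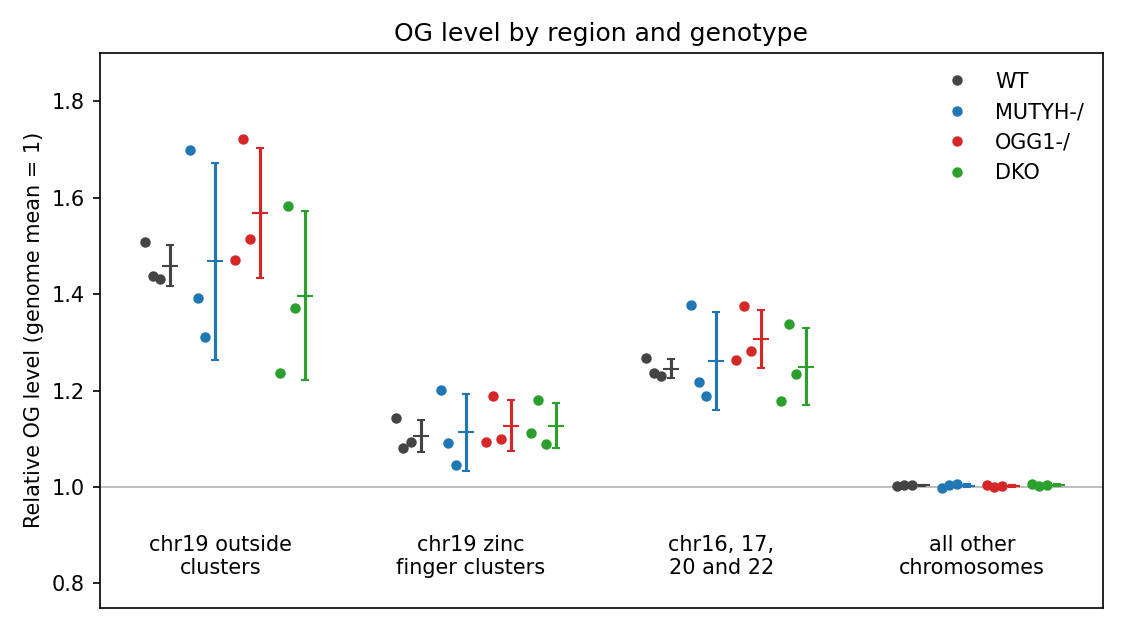
Relative OG level (y axis, genome mean = 1) of 4 regions (x axis), with 1 point per column, coloured by genotype, and bars for the mean ± SD of 3 columns. The points of chromosome 19 outside its clusters lie between 1.24 and 1.72, above those of the other 3 regions in the same column.

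The excess was smaller against bins of equal base composition. The bins of the region average 49.6% GC, against 40.7% outside chromosome 19, 44.3% in the zinc finger clusters and 45.2% on chromosomes 16, 17, 20 and 22. Gene starts, counted for protein-coding genes and long non-coding RNA genes, number 40.3 per Mb here against 12.99 per Mb outside the chromosome. CpG islands covered 8.71% of the bins against 2.04%, and a canonical G4 motif lay in 24.7% against 9.56%. When each bin was set against bins of the same GC percent on other chromosomes, the level of the region was higher by only 0.0533 ± 0.0475 (SD, n = 12 columns). The difference was positive in 11 of 12 columns, with MUTYH-/ 3 at -0.00589 as the exception (p = 0.00146, two-sided exact sign-flip permutation test). The same comparison of the log2 ratio of recovered reads gave 0.01 ± 0.0123, positive in 10 of 12 columns (p = 0.00977, exact sign-flip permutation test).

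The level climbed with GC content and then turned. Bins under 40% GC had a mean level of 0.716 ± 0.0702 (SD, n = 12 columns), those of 45 to 50% GC 1.51 ± 0.150, and those of 55 to 60% GC 1.79 ± 0.241. In the 1252 bins of 65% GC or more the level was 1.28 ± 0.367. At 50 to 55% GC the region stood above equal classes outside the chromosome by 0.113 ± 0.0796, in 12 of 12 columns (p = 0.000488, adjusted p = 0.00114 over 7 classes, exact sign-flip permutation test). At 60 to 65% GC, the only class with a negative mean difference, it was -0.00762 ± 0.0413 and positive in 4 of 12 columns (p = 0.535, same exact test). At 65% GC or more the difference was 0.0631 ± 0.0366 and positive in 12 of 12 columns (adjusted p = 0.00114, same exact test).

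No difference between a knockout and WT in a GC class passed after adjustment over 21 class tests (the lowest adjusted p was 0.42, two-sided exact permutation test). OGG1-/ did not overlap WT under 40% GC, where it was lower by 0.100, at 55 to 60% GC, where it was higher by 0.183, or at 60 to 65% GC, where it was higher by 0.203. On other chromosomes OGG1-/ differed from WT in the same classes by -0.0790, 0.188 and 0.174, also without overlap. MUTYH-/ and DKO did not overlap WT in the class richest in GC. At 65% GC or more, WT columns were at 1.63, 1.45 and 1.62. The MUTYH-/ columns were at 1.38, 0.822 and 1.27, all below WT. The DKO columns were at 0.389, 1.27 and 1.06, also all below WT, while the OGG1-/ columns at 1.46, 1.36 and 1.63 overlapped it. The differences from WT were -0.404 for MUTYH-/, -0.0804 for OGG1-/ and -0.655 for DKO. With 3 columns against 3 the two-sided exact permutation test cannot go below p = 0.1, which it reached in each case without overlap. The same class on other chromosomes differed from WT by -0.412 in MUTYH-/ and by -0.673 in DKO, so other chromosomes showed differences of like size. The input moved too. WT had a relative input coverage of 0.893 ± 0.0535 in these bins, and MUTYH-/ had 0.536 ± 0.0421, OGG1-/ 0.636 ± 0.0619 and DKO 0.554 ± 0.0459 (SD, n = 3 columns each). All 9 knockout columns were below the WT columns. The part of the input coverage in the level was not tested. The log2 ratio of OG over input reads was 0.30 ± 0.0745 for WT, 0.38 ± 0.117 for MUTYH-/, 0.43 ± 0.0971 for OGG1-/ and 0.20 ± 0.294 for DKO (SD, n = 3 columns each).

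**Figure D2:**
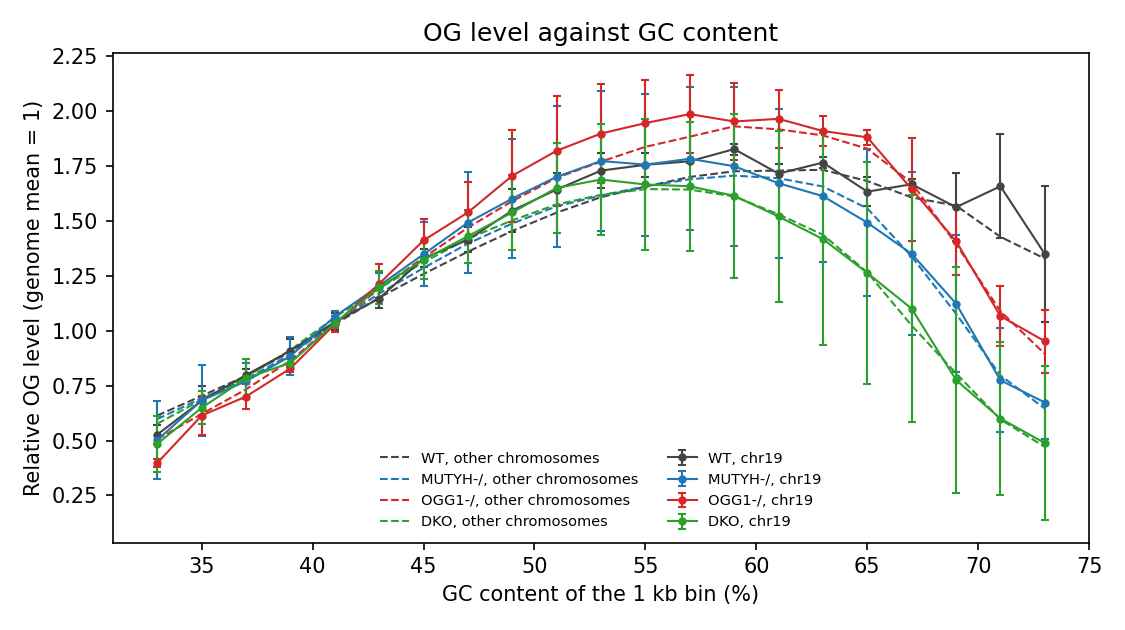
Relative OG level (y axis, genome mean = 1) of 1 kb bins in classes of GC content (x axis, %), as the mean of 3 columns per genotype with SD bars for chromosome 19 outside its clusters (solid) and as means for other chromosomes (dashed). The solid and dashed lines run close together, and the level is highest between about 50 and 60% GC. The MUTYH-/ and DKO lines lie below WT above 65% GC. The OGG1-/ line lies below WT from the class at 67% GC on (1.64 against 1.67 there, 1.07 against 1.66 at 71%).

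The 4 segments differed beyond GC. The second segment, 24100001-36500000, spans the centromere and holds fewer gene starts (24.8 per Mb) and less GC (45.5%) than the others. Its level was 1.21 ± 0.0652 (SD, n = 12 columns), which was 0.0417 ± 0.0283 below bins of equal GC, in 12 of 12 columns (p = 0.000488, exact sign-flip permutation test, adjusted p = 0.000977 over 4 segments). The first segment, on the short arm, had 51.5% GC and a level of 1.58 ± 0.188, which was 0.0933 ± 0.0720 above bins of equal GC in 11 of 12 columns (adjusted p = 0.0013, same exact test). The third segment was above by 0.0415 ± 0.0380 in 10 of 12 columns (adjusted p = 0.00537, same exact test). The fourth, which has the most gene starts at 51.3 per Mb, was above by 0.0808 ± 0.0515 in 12 of 12 columns (adjusted p = 0.000977, same exact test). Relative input coverage was also lowest in the second segment, at 0.992 to 1.05 over the columns, against 1.03 to 1.19 in the first. No segment passed a test between a knockout and WT (the lowest p was 0.2, two-sided exact permutation test, adjusted p = 1 for all 12 tests). None could pass, because the exact permutation test of 3 columns against 3 cannot go below p = 0.1.

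**Figure D3:**
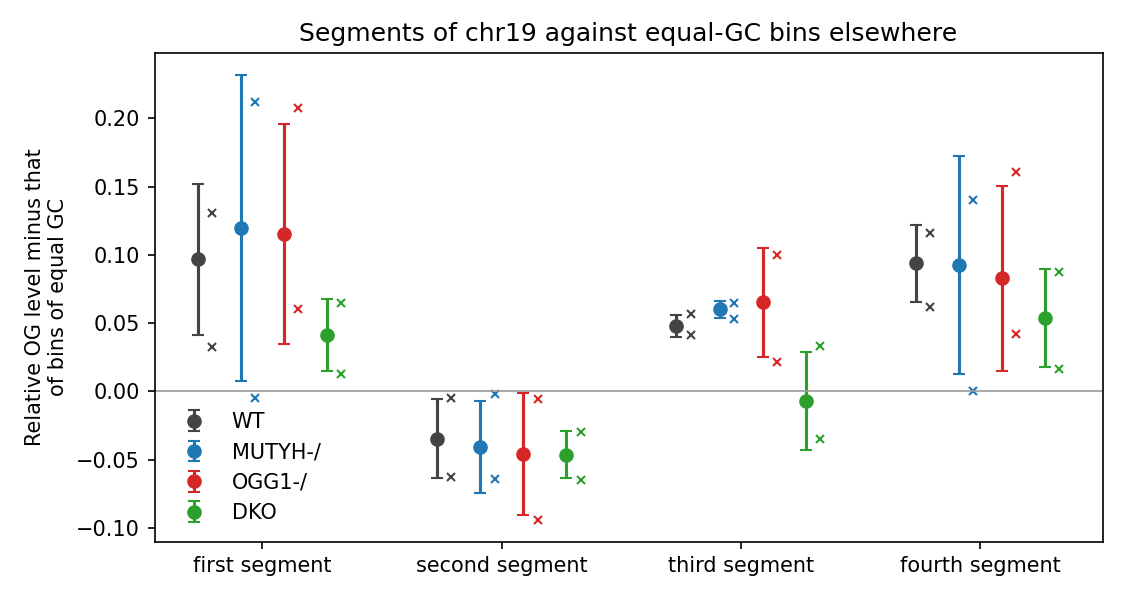
Relative OG level minus that of bins of equal GC on other chromosomes (y axis) in the 4 segments of chromosome 19 (x axis), as mean and SD of 3 columns per genotype, with crosses at the lowest and the highest column. Every cross of the second segment is below 0, between -0.0938 and -0.00175, and every cross of the fourth is above 0.

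Within the region introns were above the mean level and intergenic DNA below it. Intergenic bins were not below bins of equal GC on other chromosomes. Their difference from these, 0.0282, was smaller than that of the whole region, 0.0533. Introns, 58.4% of the bins, had a level of 1.52 ± 0.157 (SD, n = 12 columns) and were above the region's mean in 12 of 12 columns, by 0.0451 ± 0.0141. Intergenic bins, at 1.36 ± 0.110, were below it in 12 of 12 columns, by 0.111 (both p = 0.000488 and adjusted p = 0.00146 over 6 features, exact sign-flip permutation test). Bins with a G4 motif were above it by 0.0807 ± 0.0892, in 10 of 12 columns (adjusted p = 0.0264, same exact test). Against bins of equal GC on other chromosomes the G4 bins differed by -0.0139 ± 0.0319 (adjusted p = 0.188, same exact test), the intergenic bins by 0.0282 ± 0.0464 (adjusted p = 0.0959, same exact test), and the introns were above by 0.0754 ± 0.0547 in 12 of 12 columns (adjusted p = 0.00293, same exact test). CpG islands, stretches rich in unmethylated CpG that mark many gene starts, stood at 1.63 ± 0.0533 for WT, 1.43 ± 0.235 for MUTYH-/, 1.66 ± 0.0756 for OGG1-/ and 1.26 ± 0.335 for DKO (SD, n = 3 columns each). Their input coverage was 1.04 to 1.11 times the genome mean in the WT columns and 0.799 to 0.961 times in the knockout columns, and its part was not tested. Against bins of equal GC the islands were lower by 0.0526 over all columns, and lower in 9 of 12 (adjusted p = 0.019, exact sign-flip permutation test), whereas their log2 ratio of OG over input was above that of the region by 0.0950 (p = 0.000977, exact sign-flip permutation test). None of the 18 tests of a feature between a knockout and WT passed (adjusted p of 0.75 or more, exact permutation test). They could not pass, because the exact permutation test of 3 columns against 3 cannot go below p = 0.1.

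Gene starts showed the same contrast in position. Around 1105 starts of protein-coding genes, GC rose from 51.7% in the flanks 10 to 15 kb away to 60.04% in the bin of the start. The WT columns changed by 0.0547, 0.0127 and 0.159 from flank to start. The MUTYH-/ columns changed by -0.322, -0.345 and -0.0807, and the DKO columns by -0.336, -0.148 and -0.164, so that every column of both genotypes was below every WT column. The OGG1-/ columns, at -0.0505, -0.394 and 0.0612, overlapped WT. The difference from WT was -0.325 for MUTYH-/ and -0.291 for DKO (p = 0.1 for both, the smallest p the exact permutation test of 3 against 3 can give). Relative input coverage at the starts was 1.05 ± 0.0240 for WT, against 0.856 ± 0.0167 for MUTYH-/, 0.900 ± 0.0519 for OGG1-/ and 0.827 ± 0.0292 for DKO (SD, n = 3 columns each). The log2 ratio changed at the start by 0.10 for WT, 0.04 for MUTYH-/, 0.07 for OGG1-/ and 0.04 for DKO, and the groups overlapped (p of 0.2 or more, exact permutation test). The part of the input coverage in this contrast was not tested.

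**Figure D4:**
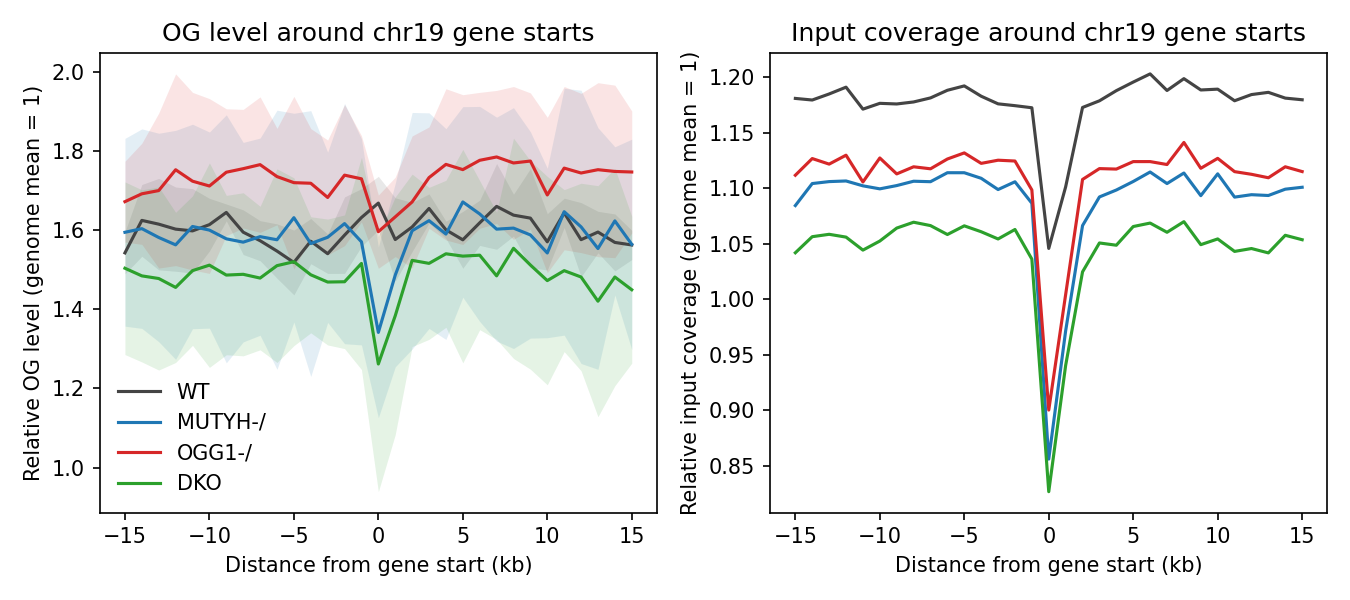
Left, relative OG level (y axis, genome mean = 1) by distance from the start of 1105 protein-coding genes (x axis, kb, positive into the gene), as mean of 3 columns per genotype with a band of 1 SD. Right, relative input coverage at the same distances. Input coverage dips at the start in every genotype, to 1.05 in WT and 0.827 in DKO, and the OG level dips in the knockouts but not in the WT mean.

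The 12 columns of the region were ordered by how strongly they depended on GC. The slope of the level on GC outside chromosome 19 ran from 0.282 per 10 GC percent in DKO 1 to 0.660 in OGG1-/ 2, and the level of the region rose with it over the 12 columns (Pearson's r = 0.955, p = 1e-05, the smallest that 100000 permutations can give, and Spearman's rho = 0.944, permutation p = 3e-05). Without the 2 columns farthest from the median slope r was 0.927, and within genotypes it was 0.964. Each column was divided by its own mean, and the region holds more GC than all bins (49.6% against 40.9%). A steeper slope therefore raises the level of the region largely by construction, so r and p are not a separate result about it. The columns with the steepest slopes, OGG1-/ 2 and MUTYH-/ 1, were the ones in which the region stood highest.

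No contrast of the region's mean between genotypes passed the exact permutation test, which cannot go below p = 0.1 with 3 columns against 3. The difference from WT was 0.00882 for MUTYH-/ (p = 1), 0.110 for OGG1-/ (p = 0.2) and -0.0622 for DKO (p = 0.7, two-sided exact permutation tests). Against bins of equal GC these became 0.0107, 0.00648 and -0.0425 (p = 0.7, 0.8 and 0.2, exact permutation tests). The 6 columns without OGG1 averaged 1.48 ± 0.168 and the 6 with OGG1 1.46 ± 0.132 (SD), a difference of 0.0194 (p = 0.818, two-sided exact permutation test, adjusted p = 1 over 5 contrasts). The 6 columns without MUTYH averaged 1.43 ± 0.175 and the 6 with MUTYH 1.51 ± 0.108, a difference of -0.0816 (p = 0.344, same exact test, adjusted p = 0.86). A difference in the effect of OGG1 loss between MUTYH-null and WT backgrounds was not detected (difference -0.181, p = 0.33, exact permutation of the MUTYH label within OGG1 status).

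In windows of 100 kb the region was broadly high. Of its 408 windows 379 (92.9%) were above the genome mean, against 42.5% of windows outside chromosome 19, and the median was 1.55. GC content correlated with the level at r = 0.892 across these windows, which share libraries. The highest window, 18200001-18300000, holds RAB3A, PDE4C, IQCN and JUND and had a level of 1.97 ± 0.278 (SD, n = 12 columns, range 1.55 to 2.44). Next came 10200001-10300000, at 1.89 ± 0.257, with DNMT1, the maintenance DNA methyltransferase, and the adhesion molecules ICAM1, ICAM4 and ICAM5. The third was 4500001-4600000, at 1.89 ± 0.334, with the lipid droplet proteins PLIN4 and PLIN5. The lowest window, 28700001-28800000, holds no protein-coding gene and stood at 0.659 ± 0.174. The next 2, 24100001-24200000 and 24200001-24300000, lie at the short-arm edge of the second segment, at 0.765 ± 0.155 and 0.778 ± 0.183. The window 24100001-24200000 holds ZNF254, a zinc finger gene, and borders an excluded stretch.

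No window of the region differed between a knockout and WT in limma with Benjamini-Hochberg adjustment over 28114 windows. The background was 0% of all windows for MUTYH-/, 0% for OGG1-/ and 0.0107% for DKO. At an unadjusted p under 0.05 there were 6, 20 and 13 windows of the region in MUTYH-/, OGG1-/ and DKO, against 3.33%, 4.58% and 4.63% of all windows, where 408 windows gave 1.47%, 4.90% and 3.19%. The median difference of the windows was 0.00785, 0.101 and -0.0602, where the median over all windows was -0.00116, -0.00719 and 0.00172. The largest gain in OGG1-/ was at 4200001-4300000, with ANKRD24, EBI3, YJU2, SHD and TMIGD2. WT columns there were at 1.56, 1.43 and 1.45 and OGG1-/ columns at 1.82, 2.08 and 2.16, without overlap. The difference was 0.543 ± 0.203 (SE, limma adjusted p = 0.986). The same window had the largest gain in DKO, 0.345 ± 0.203 (limma adjusted p = 0.9997), on the shared WT columns. The largest loss in both MUTYH-/ and DKO was at 1400001-1500000, a window of 60.4% GC with GAMT, DAZAP1, RPS15, APC2, PCSK4 and REEP6. Its WT columns were at 2.13, 2.15 and 1.70, its MUTYH-/ columns at 2.07, 1.38 and 1.40 and its DKO columns at 0.575, 1.96 and 1.45, so both overlapped WT (difference for DKO -0.668 ± 0.213, limma adjusted p = 0.66). The largest gain in MUTYH-/ was at 47100001-47200000, with ZC3H4 and SAE1, at 0.374 ± 0.188 (limma adjusted p = 0.9996), and the largest loss in OGG1-/ was at 14900001-15000000, with OR7C2 and SLC1A6, at -0.310 ± 0.144 (adjusted p = 0.986, limma).

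Of 61 genes listed for their roles, 53 had 5 or more bins in the region and were tested, 7 were shorter and XRCC1, the scaffold of single-strand break repair, lay in an excluded cluster. The median level of the 53 gene bodies was 1.71, against 1.62 over all 1172 tested genes of the region and 1.18 over all 27615 genes tested, and 41 of the 53 were above bins of equal GC. The share above equal GC over the 1172 genes is not given, so this count and those by role below have no background. The region as a whole was above equal GC by 0.0533 and its introns by 0.0754, so the counts do not set the listed genes apart. No listed gene passed limma at an adjusted p under 0.05 in any comparison, nor did any of the 1172. The background was 0% of all genes in each comparison. At an unadjusted p under 0.05 there were 50, 60 and 75 genes of the region in MUTYH-/, OGG1-/ and DKO (4.27%, 5.12% and 6.40%), against 4.63%, 4.76% and 5.095% of all genes.

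Among the genes of DNA repair and replication, 12 were tested and all 12 stood above the genome mean, with a median of 1.78 and 11 above bins of equal GC. ERCC2, a helicase of nucleotide excision repair, had a level of 2.18 ± 0.452 (SD, n = 12 columns). BABAM1, of the BRCA1-A complex, followed at 2.11 ± 0.620. LIG1, the ligase that seals base excision and replication nicks, stood at 1.65 ± 0.321, and POLD1, the catalytic subunit of polymerase delta, at 1.66 ± 0.286.

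Of the 10 tested genes of antioxidant defence and the respiratory chain, 9 were above the genome mean. KEAP1, the sensor that holds back the antioxidant factor NRF2, stood at 1.89 ± 0.307 and PRDX2, a peroxidase, at 1.94 ± 0.850 (SD, n = 12 columns). NDUFB7, a subunit of complex I, was the highest of the tested genes at 2.19 ± 0.862. UQCRFS1, the Rieske iron-sulphur protein of complex III (chr19:29205320-29213151, 8 bins of 40.9% GC), was the only tested gene of the list below the genome mean, at 0.5996 ± 0.586. Its WT columns were at 0.730, 0.281 and 0.458 and its MUTYH-/ columns at -0.305, -0.201 and -0.0762. The OGG1-/ columns were at 0.913, 0.596 and 0.869, and the DKO columns at 1.19, 1.28 and 1.46. MUTYH-/ lay below WT without overlap, and DKO above it without overlap. The difference was -0.684 ± 0.139 in MUTYH-/ (SE, limma adjusted p = 0.805) and 0.821 ± 0.139 in DKO (limma adjusted p = 0.393), so the gene passed the test in neither. COX6B1, of complex IV, stood at 1.93 ± 0.850 in WT and 0.877 ± 0.562 in MUTYH-/ (SD, n = 3 columns, limma adjusted p = 0.9999).

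The 12 genes of chromatin and DNA methylation were even among themselves. Their levels ran from 1.52 to 1.87 with a median of 1.77, and 12 of 12 were above bins of equal GC. DNMT1 stood at 1.75 ± 0.273, UHRF1, which brings DNMT1 to newly made DNA, at 1.82 ± 0.315, and SMARCA4, the motor of the SWI/SNF remodeller, at 1.79 ± 0.228 (SD, n = 12 columns). In OGG1-/ 12 of 12 had a mean above WT, with a median difference of 0.250. Over the region 772 of 1172 genes (65.9%) were above WT with a median difference of 0.119, against 54.3% and 0.0211 over all genes tested. SUPT5H, an elongation factor of RNA polymerase II, had the lowest unadjusted p of them, with WT columns at 1.71, 1.03 and 1.24 and OGG1-/ columns at 2.10, 2.002 and 1.66 (limma adjusted p = 0.989).

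Of 9 transcription factors only 5 were long enough to test. Their median was 1.60, with 3 of 5 above bins of equal GC. ZNF536, a neural repressor in the gene-poor second segment, spans 489 bins and had a level of 1.35 ± 0.0563 over 12 columns. JUND, a single-exon AP-1 factor of 74.2% GC and 2 bins, was listed but not tested. Its WT columns were at 1.11, 0.813 and 0.879 and the 9 knockout columns between -0.134 and 0.699, below them. Its relative input coverage was 0.133, so few reads stand behind these values.

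Of the 14 genes of signalling and growth control, 7 were above bins of equal GC and the median level was 1.52. MAP2K2, a kinase of the MAPK cascade, stood at 1.94 ± 0.275 and STK11, the kinase LKB1, at 1.75 ± 0.356 (SD, n = 12 columns). BAX, which permeabilises mitochondria in apoptosis, stood at 1.45, 2.47 and 2.43 in WT and 0.669, 1.67 and 0.959 in DKO. The groups overlapped, and the difference was -1.02 ± 0.354 (SE, limma adjusted p = 0.922). In DKO 12 of the 14 genes had a mean below WT, with a median difference of -0.124. Over the region only 458 of 1172 genes (39.1%) were above WT, with a median difference of -0.0872, against 46.4% and -0.0178 over all genes tested.

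**Figure D5:**
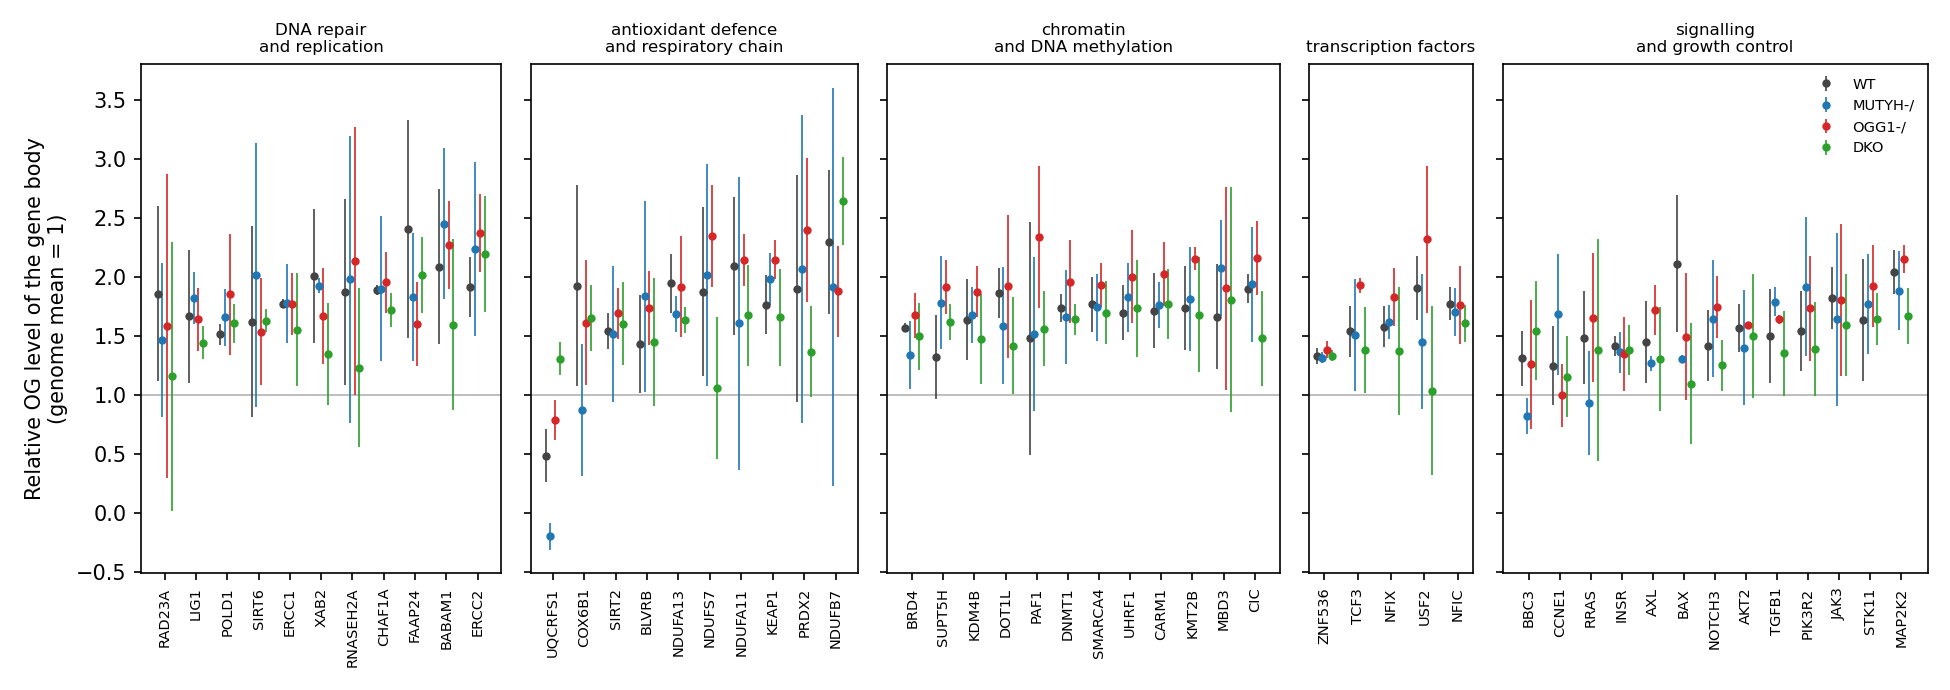
Relative OG level of the gene body (y axis, genome mean = 1) of 51 of the 53 tested genes in 5 groups by role (x axis), as mean and SD of 3 columns per genotype. All genes shown but UQCRFS1, at 0.5996, have a mean over the 12 columns above the genome mean.

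The largest gene-level differences came from short genes. In OGG1-/ UBXN6, a cofactor of the p97 ATPase, had the largest gain, with WT columns at 1.11, 1.83 and 0.866 and OGG1-/ columns at 2.33, 2.28 and 2.999, a difference of 1.27 ± 0.305 (SE, limma adjusted p = 0.971). It was followed by the readthrough gene ENSG00000142539 and by FUT2, the fucosyltransferase that sets secretor status, with gains of 1.25 and 1.20. The 3 largest losses were in the readthrough gene ENSG00000267385, PROSER3 and NKPD1, from -0.892 to -0.791. In MUTYH-/ the largest gains were in ODAD3, SHD and TOMM40, from 0.907 to 1.16, and the largest losses in DAPK3, COX6B1 and the long non-coding RNA LINC00905, from -1.08 to -1.03. ODAD3, a docking protein of motile cilia, stood at 1.07, 1.04 and 1.23 in WT and 2.95, 1.69 and 2.18 in MUTYH-/, without overlap (limma adjusted p = 0.921). In DKO the largest gains were in TOMM40, the pore of mitochondrial protein import, UPK1A and FUT2, from 0.934 to 1.30, and the largest losses in NKPD1, PCSK4 and PROSER3, from -1.42 to -1.37. PROSER3 stood at 3.26, 2.301 and 2.35 in WT and 0.993, 1.42 and 1.39 in DKO (difference -1.37 ± 0.328, limma adjusted p = 0.741). These genes hold 10 to 15 bins each, and none passed the test.

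In single 1 kb bins no bin of the region passed an adjusted p under 0.05 in limma on log2(value + 1), with 14, 7 and 39 such bins in the genome for MUTYH-/, OGG1-/ and DKO. Fold changes here are on that scale, with values below 0 set to 0, so the change of low bins is understated. By the looser rule of p of 0.01 or less and a log2 fold change beyond 0.5, MUTYH-/ had 211 gains and 199 losses among 40758 bins tested (0.518% and 0.488%), against 0.3% and 0.322% of all bins. OGG1-/ had 234 gains and 127 losses (0.574% and 0.312%), against 0.299% and 0.256%. DKO had 181 gains and 240 losses (0.444% and 0.589%), against 0.296% and 0.312%. When the values were centred within each GC percent, the counts became 132 gains and 105 losses in MUTYH-/, 106 and 89 in OGG1-/ and 113 and 112 in DKO, or 0.581%, 0.478% and 0.552% of the bins, against 0.669%, 0.612% and 0.652% of all bins. At an unadjusted p under 0.05 there were 2291, 2111 and 2241 bins of the region in MUTYH-/, OGG1-/ and DKO (5.62%, 5.18% and 5.498%), against 4.39%, 4.103% and 4.31% of all bins. The split between gains and losses moved when single columns were left out, here and in the genome. Gains were 51.5%, 64.8% and 42.99% of the calls of the region in MUTYH-/, OGG1-/ and DKO, and 48.2%, 53.9% and 48.7% of those of the genome. Without WT 1 they were 77.2%, 88.2% and 71.1% of the calls of the region and 68.1%, 73.9% and 68.3% of those of the genome. Without MUTYH-/ 1 the share in MUTYH-/ was 20.6%, against 28.4% in the genome. Without OGG1-/ 2 the share in OGG1-/ was 27.4%, against 31.7%, and without DKO 2 the share in DKO was 14.7%, against 27.4%.

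OG-enriched bins, those at or above the 95th percentile of a column in at least 2 of 3 columns of a genotype, made up 3.64% of the region for WT, 3.80% for MUTYH-/, 4.76% for OGG1-/ and 2.90% for DKO. The background over all bins was 1.34%, 1.33%, 1.54% and 1.3%. The region was thus 2.72, 2.86, 3.09 and 2.23 times the background. By the log2 ratio of reads WT, MUTYH-/, OGG1-/ and DKO were 1.45, 1.899, 2.28 and 1.78 times their background. At the 99th percentile they were 2.08, 1.95, 2.20 and 1.24 times it. Where all 3 columns had to pass they were 2.02, 2.24, 2.32 and 1.28 times it. Bins of equal GC outside the chromosome gave 3.45%, 3.21%, 4.25% and 3.07%. By column the share at or above the 95th percentile ran from 7.61% in DKO 1 to 13.7% in OGG1-/ 2. Each knockout against WT gave p of 0.3 or more (exact permutation test), where 3 columns against 3 cannot go below p = 0.1.

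The highest single bins were noisy. FCGBP, which encodes a mucin-like protein of the gut, held 3 of the 5 highest bins. The bin at 39892001-39893000 averaged 4.04 ± 1.58 (SD, n = 12 columns, range 1.54 to 7.01), and the others at 39880001-39881000 and 39879001-39880000 averaged 3.98 ± 2.12 and 3.79 ± 1.87. Relative input coverage in these bins was 1.99, 1.94 and 2.26, and a share of 30.2%, 72.9% and 73.96% of their 50-base words, taken every 10 bases, occurred again on chromosome 19. Of the 72 bins of FCGBP, 15 had a relative input coverage of 1.5 or more. They averaged 2.94 in level and 0.21 in log2 ratio of OG over input, and the other 57 bins averaged 1.68 and 0.17. The part of the input coverage in these levels was not tested. The other two highest bins, the intergenic bin at 34249001-34250000 at 4.02 ± 1.68 and the MPV17L2 bin at 18195001-18196000 at 3.68 ± 2.41, had a relative input coverage of 1.43 and 1.12 and log2 ratios of 0.55 and 0.71. Of the 3 lowest bins, those at 34716001-34717000 and at SIN3B stood at -0.918 ± 1.27 and -0.911 ± 1.54, with log2 ratios of -0.91 and -0.84, and the other is not reported here. In these bins 2.08% and 27.1% of the 50-base words occurred again on chromosome 19.

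A G4 motif lay in 36.0% of the 1398 RefSeq promoters of the region (250 bases before to 50 after a gene start, GRCh38.p14), against 24.997% of all 35116. The matches of 2 genes of antioxidant defence are given because the level of the kilobase before each start follows. The GPX4 match lies within that kilobase, and the KEAP1 match lies just inside the gene, next to it. The runs of G that form the motif are in capitals, and the strand is named relative to the gene.
GPX4, chr19:1103828-1103884, other strand: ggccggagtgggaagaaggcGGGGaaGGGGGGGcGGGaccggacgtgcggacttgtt
KEAP1, chr19:10503391-10503455, as transcribed: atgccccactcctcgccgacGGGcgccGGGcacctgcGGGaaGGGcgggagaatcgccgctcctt

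GPX4, the peroxidase that protects membrane lipids, had levels in the kilobase before its start from -1.89 to 2.62 over the 12 columns, with group means of 0.942 ± 1.54 for WT, 1.30 ± 1.76 for MUTYH-/, 0.8004 ± 2.36 for OGG1-/ and 0.819 ± 1.34 for DKO (SD, n = 3 columns each). KEAP1 had group means of 0.812 ± 1.36, 1.76 ± 0.318, 2.14 ± 1.54 and 0.690 ± 1.33 in the same order. For both genes the groups overlapped, and a difference from WT was not detectable (p of 0.3 or more, exact permutation test). Over the 60 listed genes outside the excluded clusters the median upstream level was 1.68 for WT, 1.40 for MUTYH-/, 1.58 for OGG1-/ and 1.37 for DKO.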

How the data were processed

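OG-seq of HAP1 cells gave 12 pull-down and 12 input libraries. The deposited value of a 1 kb bin is a score, for which the authors scaled the input by signal extraction and took it off the OG reads. Per the labels and methods, the authors trimmed with cutadapt 2.8, checked reads with FastQC 0.11.9, mapped to GRCh38 with Bowtie2 2.3.5.1, and used SAMtools, bedtools, R 4.2.2 and edgeR 3.42.4. The members and gene lists were chosen with earlier results of these data known.

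Each column was divided by its mean over all bins. OG and input reads were recovered as whole numbers (tolerance 1e-07, at most 8 bins unsolved per column), and the procedure was tested on simulated data. GC, CpG islands (500 bp windows over 55% GC and observed over expected CpG over 0.65, 200 bp or more of a bin), G4 motifs and GENCODE v44 genes came from the GRCh38 reference, and no bin ran past a chromosome end of it. Promoter bins had their centre within 1000 bp before to 100 bp after a transcript start. Repeats were not used here.

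Means were compared by exact permutation over columns. Windows (50 bins or more), genes (5 or more) and bins (above 0 in 3 or more columns) were tested over the whole table with limma 3.58.1 in R 4.3.3, other steps with Python 3.11.15, numpy 2.4.6, pandas 2.3.3, scipy 1.17.1 and matplotlib 3.10.9. Because the unit is not counts, no count test was used. Per the labels the 3 samples of a genotype come from 2 clones, so 2 share a clone, and the study's methods name 3 independent experiments. P-values measure the spread between these columns, part of which may be technical. Genes named in the text were those listed by role, the 3 largest gains and losses per knockout among genes of 10 or more bins, and the extreme windows and bins. The segments, GC classes and gene start profile were chosen after seeing the data. A few items are not reported here.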

Additional observations from a re-analysis of the deposited data

Results flagged for a closer look

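Among the 6 columns with MUTYH, the mean of the region in OGG1-/ 2, 1.72, stood apart from the others, with a gap to its nearest neighbour of 0.714 of the whole range of 1.43 to 1.72. Chance flags about 1 in 20 such groups. The same column had the steepest slope on GC, 0.660 per 10 GC percent.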

How the results depend on the processing

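The region stood above the rest of the genome, its clusters, the GC-rich chromosomes and bins of equal GC with values below 0 set to 0, with medians, with the log2 ratio and without any 1 column (ranges 0.447 to 0.492, 0.339 to 0.376, 0.195 to 0.221 and 0.0458 to 0.0587). The last difference was 0.0797 in bins of 43 to 57% GC alone and 0.0759 with the expected level taken without chromosome 15. Both were chosen after seeing the data, like the equal-GC share of enriched bins below. No genotype contrast of the mean passed under any alternative. Those between a knockout and WT could not, as so few columns cannot bring the exact permutation test below p = 0.1. With values below 0 set to 0, MUTYH-/ minus WT was -0.0133, and against equal GC OGG1-deficient minus OGG1-proficient was -0.0234. Without 1 column the contrasts ran from -0.107 to 0.0870 (MUTYH-/), 0.0332 to 0.159 (OGG1-/), -0.155 to 0.0179 (DKO), -0.0285 to 0.0687 (OGG1-deficient) and -0.135 to -0.0400 (MUTYH-deficient). The first turned negative without MUTYH-/ 1, WT 2 or WT 3, the third positive without DKO 1, and the fourth negative without OGG1-/ 2, MUTYH-/ 3 or DKO 2. The GC relation had r of 0.941 to 0.970 without 1 column.

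Against equal GC the features differed by -0.0226 (promoter), 0.0315 (exon), 0.0282 (intergenic), -0.0526 (CpG island) and -0.0139 (G4), and on the log2 ratio promoters, exons and CpG islands stood above the region's mean by 0.0532, 0.0266 and 0.10, past the threshold. Enriched bins relative to the equal-GC share were 1.06 (WT), 1.18 (MUTYH-/), 1.12 (OGG1-/) and 0.946 (DKO) times as frequent. They were 1.45 (WT), 1.899 (MUTYH-/), 2.28 (OGG1-/) and 1.78 (DKO) times background on the log2 ratio. At the 99th percentile DKO was 1.24 times background and the other genotypes 1.95 to 2.20 times. In all 3 columns DKO was 1.28 times background and the other genotypes 2.02 to 2.32 times. Centred within GC percent, 237, 195 and 225 single bins passed in MUTYH-/, OGG1-/ and DKO. Without 1 column 373 to 483, 268 to 485 and 329 to 476 did. The cause of these changes was not tested. No window or gene of the region passed in any alternative run.

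Same-numbered columns did not deviate together on average (mean correlation -0.022 over 18 pairs, range -0.399 to 0.326, of which 4 were above 0.1). Whether they share an experiment or a run cannot be told from this. With the number as a replicate block the differences from WT stayed 0.00882, 0.110 and -0.0622, and 400, 356 and 412 single bins passed. Repeat share was not run because the reference does not mark repeats. Depth limits single bins, which hold on average 26.9 to 49.0 OG reads.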
